A study of Mus musculus with 9 samples.

Results

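The mitochondrially encoded transcripts are the RNAs made from the DNA inside mitochondria. They were taken as every gene in the deposited count table whose symbol begins with mt- in lower case, which gave 37 of the 55453 genes listed: 13 mRNAs, 2 ribosomal RNAs and 22 transfer RNAs. Of these, 18 passed the filter on low counts (7 mRNAs, both ribosomal RNAs and 9 transfer RNAs) and 9 had no count in any library. RNA came from whole aortae of C57BL/6J mice, frozen in liquid nitrogen, with 3 mice in each of 3 genotypes. The Itga8-Cre group carries a tamoxifen-inducible Cre recombinase tied to the integrin gene Itga8, and the Myh11-Cre group carries the inducible Cre tied to the smooth muscle myosin gene Myh11. The third group is Wild Type. The series was designed to set the activity of the Itga8 line beside that of the Myh11 line. Age, sex and any tamoxifen dosing are not given in the labels. Because whole vessels were used, fewer cells of a type and less RNA per cell cannot be told apart.

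Mitochondrial DNA is a small circle present in many copies per cell, and it is transcribed from both strands as long precursors. Transfer RNAs lie between most of the other genes, and their excision frees the mRNAs and ribosomal RNAs. The mRNAs code for subunits of respiratory chain complexes I, III and IV and of the ATP synthase, complex V, while all other subunits of these complexes, the polymerase and the ribosomal proteins are nuclear genes. By convention the genes on the plus strand of the reference are heavy-strand transcripts, and mt-Nd6 with 8 of the 22 transfer RNAs are light-strand transcripts. Libraries were made with oligo-dT selection, which enriches transcripts that carry a stretch of A. Most mitochondrial mRNAs have a short poly(A) tail. In mt-Co3, mt-Nd4 and mt-Cytb the annotated gene ends 1 base into a codon, the T in capitals, and the tail completes the stop codon, whereas mt-Co1 has its stop codon in the DNA, also in capitals. In mt-Co3, mt-Nd4 and mt-Cytb the tail that oligo-dT binds is added at the annotated end. The annotated end of mt-Co1 overlaps mt-Ts1, on the opposite strand, by 3 bases, and where its tail is added was not tested. The last 30 bases of these annotated genes are shown (GENCODE M21 transcripts, build GRCm38, 5′ to 3′).
mt-Co3, chrM:9361-9390, plus strand: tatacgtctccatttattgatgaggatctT
mt-Nd4, chrM:11515-11544, plus strand: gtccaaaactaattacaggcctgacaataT
mt-Cytb, chrM:15259-15288, plus strand: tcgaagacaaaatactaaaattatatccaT
mt-Co1, chrM:6843-6872, plus strand: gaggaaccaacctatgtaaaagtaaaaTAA

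The libraries held between 31419238 and 42497543 counts. Mitochondrial genes took between 18.6% of them, in Wild Type 1 (95% Wilson interval 18.61% to 18.64%), and 25.6%, in Wild Type 2 (25.56% to 25.59%). These intervals treat each count as an independent draw and do not cover the spread between mice. Reads were amplified without molecular identifiers, so the intervals may be too narrow even for counting error. Levels below are CPM, counts scaled to a common depth, on library sizes scaled by TMM, a trimmed mean of ratios between libraries. Markers of fat and muscle differed between mice, also within a genotype. Ucp1, the uncoupling protein of brown fat, ran from 1348 to 4957 CPM within the Itga8-Cre mice, and Acta1, the actin of skeletal muscle, from 4.57 to 3636 CPM within the Myh11-Cre mice. The vessel wall's smooth muscle actin, Acta2, was lowest in Myh11-Cre 1 (171 CPM) and highest in Wild Type 1 (1038 CPM). The score of 12 smooth muscle genes, defined below with the other marker scores, was also lowest in Myh11-Cre 1 (5.946). That score was highest in Myh11-Cre 3 (7.608), followed by Myh11-Cre 2 (7.532) and Wild Type 1 (7.526), so it did not follow Acta2 at the top.

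Along the mitochondrial genome the counted mRNAs fell into 2 sets that did not overlap. Each of 7 mRNAs (mt-Nd1, mt-Nd2, mt-Co1, mt-Nd4, mt-Nd5, mt-Nd6 and mt-Cytb) had more than 2000 counts in every library. Each of the other 6 (mt-Co2, mt-Atp8, mt-Atp6, mt-Co3, mt-Nd3 and mt-Nd4l) had no library over 2000 counts and none passed the filter. These 6 are neighbours, and they code for subunits of complexes IV, V and I like the genes on either side. Listed in the order Itga8-Cre 1 to 3, Myh11-Cre 1 to 3 and Wild Type 1 to 3, mt-Co2, a core subunit of complex IV, had 61, 1, 2, 85, 1, 1, 5, 0, 4 counts. For mt-Co3, another core subunit of complex IV, the same order gave 6, 1, 1, 7, 0, 1535, 1, 2, 24 counts. In both genes 1 or 2 libraries stood far above the rest, and they were not the same libraries: Itga8-Cre 1 and Myh11-Cre 1 for mt-Co2, and Myh11-Cre 3 for mt-Co3. The ATP synthase subunit mt-Atp6 had 2, 0, 2, 6, 5, 0, 3, 3, 6 counts, and the complex I subunit mt-Nd3 had 7, 7, 5, 8, 10, 9, 8, 7, 6 counts. The other ATP synthase subunit, mt-Atp8, had 1 count in Itga8-Cre 1 and 0 elsewhere. The complex I subunit mt-Nd4l had 0 counts in every library, which allows up to 3 counts per library, or 0.0729 to 0.0885 CPM. In all, the 6 genes had 1832 counts over the 9 libraries, of which 1535 were the mt-Co3 counts of Myh11-Cre 3.

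The 6 sparse mRNAs are the ones that lie wholly inside a stretch of mitochondrial DNA that is spanned by annotated nuclear copies on chromosome 1. The gaps between these copies, opposite most of mt-Atp8 and the transfer RNAs of the stretch, were not searched. That the copy is unbroken was therefore not tested. On GRCm38, 7 annotated pseudogenes at chr1:24611535-24616197, minus strand, follow the order of mt-Co1 to mt-Nd4, and their identical parts span chrM:6394-11042, an interval of 4649 bases. Over their whole compared length, Gm28661 is identical to mt-Co2 (681 bases), Gm10925 to mt-Atp6 (678), Gm28437 to mt-Co3 (783), Gm10222 to mt-Nd4l (294) and Gm28439 to the first 876 bases of mt-Nd4. The copy of mt-Nd3, Gm28438, differs at 1 of 345 bases, T3C, counted from the first base of the mitochondrial gene. The copy of the end of mt-Co1, Gm29216, differs at 6 of 492 bases, all of them at its start, and is then identical for 479 bases. The differing bases are printed in capitals, because they are the places where a read could tell a mitochondrial transcript from its nuclear copy.
mt-Nd3, chrM:9459-9481, plus strand: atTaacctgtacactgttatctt
Gm28438, chr1:24613097-24613119, minus strand: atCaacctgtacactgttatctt
mt-Co1, chrM:6381-6413, plus strand: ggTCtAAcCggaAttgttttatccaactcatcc
Gm29216, chr1:24616165-24616197, minus strand: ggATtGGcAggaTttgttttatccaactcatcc

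Reads were 75 bases long, so each mitochondrial transcript was divided into all its 75-base windows and each window was searched for in the annotated nuclear transcripts. An exact nuclear copy was found for 99.5% of the windows of mt-Co2, 99.5% of mt-Atp6, 99.9% of mt-Co3, 97.8% of mt-Nd3 and 98.6% of mt-Nd4l. It was found for 61.5% of the windows of mt-Nd4, 39.8% of mt-Co1, 5.71% of mt-Nd2 and 1.66% of mt-Nd5. No window of mt-Rnr1, mt-Rnr2, mt-Nd1, mt-Nd6 or mt-Cytb had one. The mRNAs with a copy for nearly every window were therefore among the sparse set, and those with a copy for part of their length or for none were in the abundant set. The exception is mt-Atp8, for which no window had a copy. No nuclear gene model lies opposite it: 230 bases separate mt-Co2 from mt-Atp6, 233 separate Gm28661 from Gm10925, and the sequence of that gap was not searched. The search covered annotated transcripts only, so the shares are lower bounds. No source used here tells how reads with more than 1 match were counted, and the part of such reads in the low counts was not tested.

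**Figure D1:**
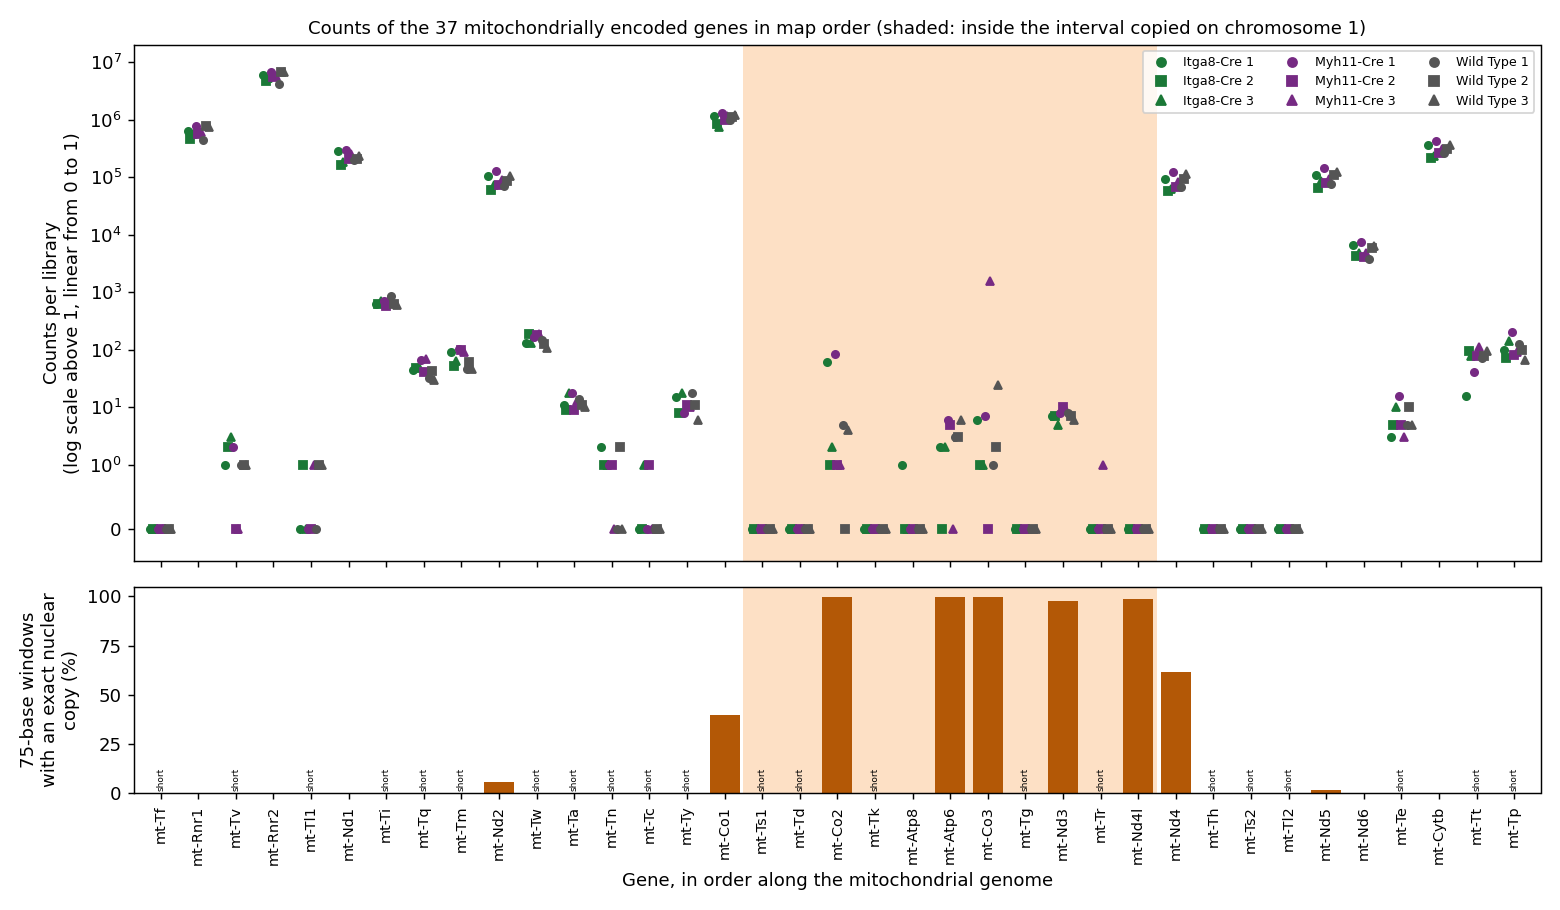
The upper panel plots the counts of the 37 mitochondrially encoded genes (x axis, in map order) in each of the 9 libraries (y axis, log scale above 1 and linear from 0 to 1), with colour for genotype and marker shape for mouse number. The lower panel gives the percent of 75-base windows with an exact nuclear copy, with "short" for the transfer RNAs, none longer than a read. In the shaded interval, spanned by the annotated copies on chromosome 1, no gene exceeds 1535 counts, while the 7 mRNAs not wholly inside it exceed 2000 counts in every library.

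Counts of the nuclear copies themselves were low, with single libraries standing out. Gm29216, the copy of the end of mt-Co1, had 10 to 58 counts in 7 libraries, 178 in Myh11-Cre 1 and 2485 in Wild Type 3. Gm10925, the copy of mt-Atp6, had 0 to 7 counts in 8 libraries and 2227 in Myh11-Cre 1. Gm28437, the copy of mt-Co3, had 0 to 25 counts in 8 libraries and 636 in Wild Type 1. Each of these high values is found in 1 mouse of a genotype and not in the other mice of that genotype, so no genotype carries it as a group. The remaining chromosome 1 copies had at most 14 counts in any library. On chromosome 2, Gm13340, which shares 220 windows with mt-Co1, had 58 to 126 counts, and Gm13341, which shares 138 windows with mt-Co2, had 35 to 102 counts, in every library and in all genotypes.

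**Figure D2:**
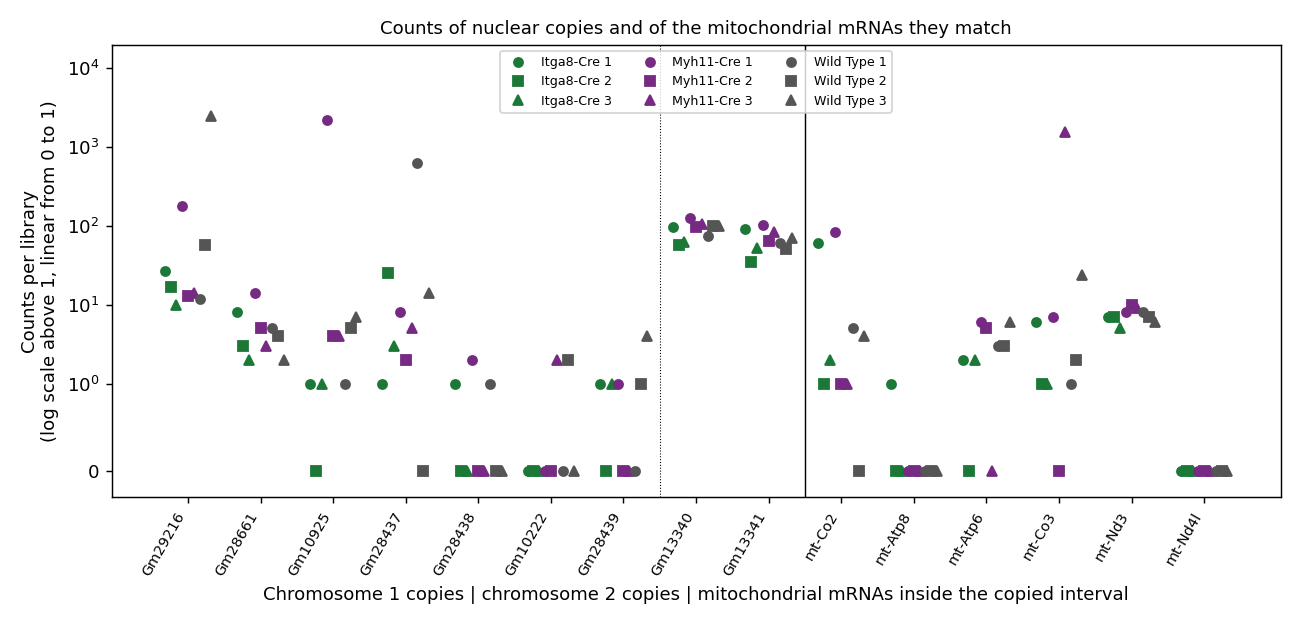
Counts per library (y axis, log scale above 1 and linear from 0 to 1) are plotted for the 7 chromosome 1 copies, 2 chromosome 2 copies and the 6 mitochondrial mRNAs of the interval that the chromosome 1 copies span (x axis), with colour for genotype and marker shape for mouse number. Single libraries stand out for Gm29216, Gm10925, Gm28437 and mt-Co3, whereas Gm13340 and Gm13341 have 35 to 126 counts in every library.

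The ribosomal RNAs made up 73.3% to 80.6% of all mitochondrial counts in spite of the oligo-dT selection. The RNA of the large subunit of the mitochondrial ribosome, mt-Rnr2 (ENSMUSG00000064339.1, chrM:1094-2675, plus strand), stood at 167008, 128356 and 152277 CPM in Itga8-Cre mice 1, 2 and 3, 185179, 132202 and 148871 in the Myh11-Cre mice, and 118481, 175471 and 176733 in the Wild Type mice. The RNA of the small subunit, mt-Rnr1 (ENSMUSG00000064337.1, chrM:70-1024, plus strand), stood at 18122, 12866 and 16404 CPM in Itga8-Cre mice 1, 2 and 3, 21469, 13713 and 15739 in the Myh11-Cre mice, and 12624, 20323 and 19236 in the Wild Type mice. For both genes the highest CPM was in Myh11-Cre 1 and the lowest in Wild Type 1, and the 3 genotypes overlapped. The highest library depended on the scaling. As a share of all counts, mt-Rnr2 was highest in Wild Type 2, at 18.2% against 15.9% in Myh11-Cre 1. For mt-Rnr1, Wild Type 2 was also highest, at 2.11% against 1.85% in Myh11-Cre 1. Per kilobase, mt-Rnr2 exceeded mt-Rnr1 by 5.21-fold to 6.02-fold over the 9 libraries, with a median of 5.60, so this ratio varied far less than either level.

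Among the mRNAs, mt-Co1, the catalytic subunit of complex IV (ENSMUSG00000064351.1, chrM:5328-6872), took 53.8% to 59.5% of all mitochondrial mRNA counts. This is a share of what was counted. The 6 sparse mRNAs added only 9 to 1545 counts per library, and 39.8% of the mt-Co1 windows have a nuclear copy. The share of mt-Co1 in the RNA itself is therefore not known. The mt-Co1 level was 33492, 22747 and 21949 CPM in Itga8-Cre mice 1, 2 and 3, 35739, 23858 and 29759 in the Myh11-Cre mice, and 28109.9, 29690.2 and 31276 in the Wild Type mice. Cytochrome b, mt-Cytb, the 1 mitochondrially encoded subunit of complex III, followed with 10326, 5970.3 and 6753 CPM in Itga8-Cre mice 1, 2 and 3, 11532, 6459 and 8146 in the Myh11-Cre mice, and 7603, 8107 and 9556 in the Wild Type mice. In CPM, the Wild Type mice lay inside the range of each Cre group for both genes, and the Cre groups had the wider spread.

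The abundant complex I mRNAs were led by mt-Nd1, a subunit of the membrane arm, at 8142, 4392 and 5317 CPM in Itga8-Cre mice 1, 2 and 3, 8202, 5062 and 6475 in the Myh11-Cre mice, and 5662, 5528 and 6092 in the Wild Type mice. Its neighbour mt-Nd2, also of the membrane arm, had 2959, 1661 and 2132 CPM in Itga8-Cre mice 1, 2 and 3, 3509, 1779 and 2339 in the Myh11-Cre mice, and 2052, 2299 and 2763 in the Wild Type mice. The Wild Type mice again spanned a narrow range inside that of the Cre mice. The levels of mt-Nd4, whose first part is copied in the nucleus, were 2599, 1566 and 1839 CPM in Itga8-Cre mice 1, 2 and 3, 3327, 1643 and 2177 in the Myh11-Cre mice, and 1981, 2439 and 2907 in the Wild Type mice. For mt-Nd5 they were 3066, 1785 and 2480.0 CPM in Itga8-Cre mice 1, 2 and 3, 3886, 1897 and 2443 in the Myh11-Cre mice, and 2182, 2861 and 3247 in the Wild Type mice. Both are proton-pumping subunits of the membrane arm, and in both the Wild Type range again fell within the combined range of the Cre mice. The single light-strand mRNA, mt-Nd6, had 185, 116 and 139.5 CPM in Itga8-Cre mice 1, 2 and 3, 206, 98.0 and 126 in the Myh11-Cre mice, and 107, 152 and 167 in the Wild Type mice. It overlaps mt-Nd5 by 14 bases on the opposite strand, and its counts are uncertain because no source used here tells if counting respected strand.

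Set in order by the median of the 9 libraries in CPM per kilobase, mt-Rnr2 (96256) came first, followed by mt-Co1 (19217), mt-Rnr1 (17177), mt-Cytb (7086), mt-Nd1 (5916), mt-Nd2 (2214), mt-Nd4 (1580), mt-Nd5 (1360) and mt-Nd6 (269). The ranges of mt-Co1 (14207 to 23132) and mt-Rnr1 (13219 to 22481) overlapped over most of their length. So did those of mt-Cytb (5219 to 10080) and mt-Nd1 (4589 to 8570). The ranges of mt-Nd2, mt-Nd4 and mt-Nd5 overlapped each other as well. By contrast, mt-Rnr2 lay above all other genes in every library, and mt-Nd6, at 189 to 397 CPM per kilobase, lay below the other abundant mRNAs in every library. Below it the sparse mRNAs followed, with medians of 0.575 for mt-Nd3, 0.116 for mt-Atp6, 0.0862 for mt-Co2 and 0.0675 for mt-Co3, and 0 for mt-Atp8 and mt-Nd4l. Dividing the same CPM by the number of windows with no nuclear copy, in place of the length, changed the order among complex I mRNAs. This scale holds only if no read from a copied window was counted, which is not known. Per 1000 windows with no copy the median was 4337 CPM for mt-Nd4, 2529 for mt-Nd2 and 1441 for mt-Nd5, so that mt-Nd4 ranked above mt-Nd2 on this scale and below it per kilobase.

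The 7 abundant mRNAs were high together or low together in single mice of every genotype. Relative to each gene's mean over the 9 libraries, the median of the 7 was 1.43 in Myh11-Cre 1, 1.24 in Itga8-Cre 1 and 1.16 in Wild Type 3. At the other end it was 0.720 in Itga8-Cre 2 and 0.745 in Myh11-Cre 2, with Wild Type 1 at 0.871, Itga8-Cre 3 at 0.872, Myh11-Cre 3 at 0.979 and Wild Type 2 at 1.04. Myh11-Cre 1 held the highest value of all 7 mRNAs. Itga8-Cre 2 held the lowest value of 5 of them, and Itga8-Cre 3 (mt-Co1) and Myh11-Cre 2 (mt-Nd6) 1 each. On the CPM scale each Cre group thus held both a high and a low library, and the highest and the lowest of the 9 were both Cre mice. As a share of all counts, mitochondrial mRNA was also highest in Myh11-Cre 1 (5.71%), but Wild Type 3 was close, at 5.63%. The lowest share was that of Itga8-Cre 3 (4.207%), with Myh11-Cre 2 almost equal to it at 4.216% and Itga8-Cre 2 at 4.40%. For mt-Co1 the highest share was in Wild Type 3, at 3.15% against 3.07% in Myh11-Cre 1.

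**Figure D3:**
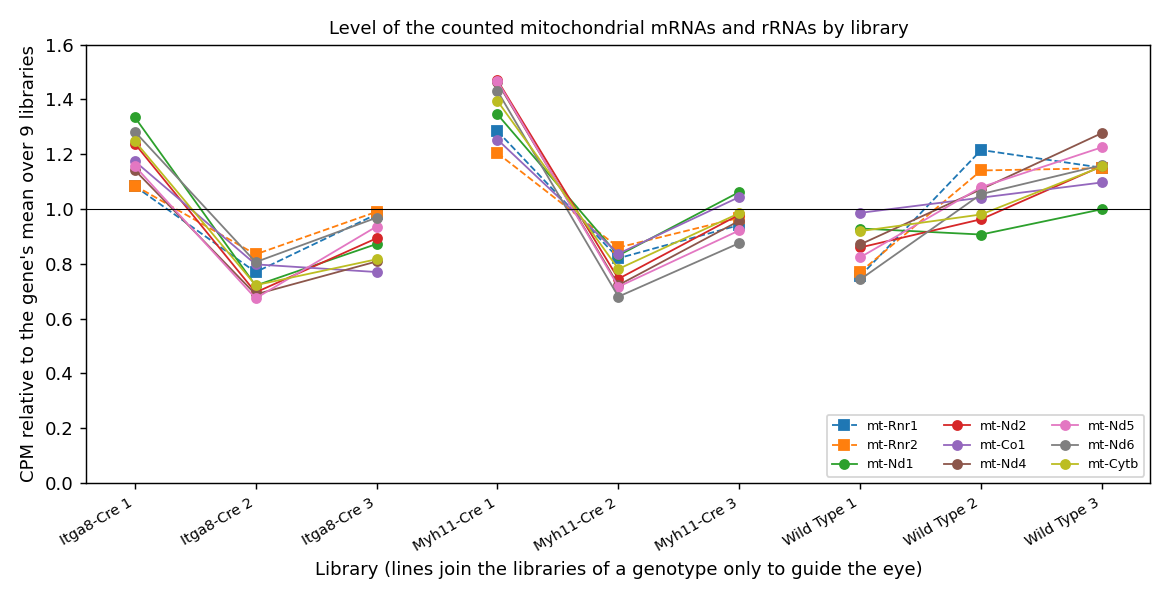
CPM of the 7 abundant mRNAs (circles, solid lines) and 2 ribosomal RNAs (squares, dashed lines), each divided by the gene's own mean over the 9 libraries (y axis), is plotted by library (x axis). Myh11-Cre 1 is highest for all 7 mRNAs, and each Cre genotype holds both a high and a low mouse.

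Transfer RNAs were close to absent, as 0.00250% to 0.00402% of all counts. All but 1 of the 22 are shorter than the 75-base reads, so a whole read inside them is possible only for mt-Tl1. Of the 22, 8 had 0 counts in every library. The 5 that lie inside the interval spanned by the chromosome 1 copies (mt-Ts1, mt-Td, mt-Tk, mt-Tg and mt-Tr) had 1 count between them over all 9 libraries, against 10489 counts for the 17 outside it, of which 4 (mt-Tf, mt-Th, mt-Ts2 and mt-Tl2) were also at 0 throughout. Outside it, mt-Tv, mt-Tl1, mt-Tn and mt-Tc had at most 3 counts in any library. Most of the 10489 counts were those of mt-Ti, with 581 to 870 per library, so the totals do not part the genes cleanly by the interval. The isoleucine transfer RNA mt-Ti, which overlaps the end of mt-Nd1 by 2 bases, was the most abundant, at 14.1 to 25.2 CPM. Next came the tryptophan transfer RNA mt-Tw (2.78 to 5.09 CPM), which overlaps the end of mt-Nd2 by 2 bases, and the proline transfer RNA mt-Tp (1.69 to 5.50 CPM). The threonine transfer RNA mt-Tt had 16, 94, 79, 41, 79, 110, 72, 77, 95 counts in the library order given above. Itga8-Cre 1 and Myh11-Cre 1 had the fewest mt-Tt counts, although they had the highest levels of mt-Cytb, the gene just before it.

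No mitochondrially encoded gene differed between genotypes by edgeR's quasi-likelihood test, with p adjusted by the Benjamini-Hochberg method over all 19412 genes. For Itga8-Cre against Wild Type, 0 of 18 members passed, and 0% of all genes passed. At an unadjusted p under 0.05 there were 0 of 18, against 6.78% of all genes, and the 3 mice of a group lay all above or all below the other 3 for 1 of 18 (mt-Tq), against 11.1% of all genes. For Myh11-Cre against Wild Type, 0 of 18 passed, again with 0% of all genes. Here 2 of 18 (mt-Tm and mt-Tq) had an unadjusted p under 0.05, against 16.4% of all genes, and 2 of 18 (mt-Tm and mt-Tw) did not overlap, against 26% of all genes. For Itga8-Cre against Myh11-Cre, 0 of 18 passed, with 0% of all genes. None had an unadjusted p under 0.05 or groups that did not overlap, against 9.48% and 12.7% of all genes. The members' shares were thus near or below those of all genes in each comparison. limma voom called 0 members and 0% of all genes in each comparison. DESeq2 called 1 of the 17 members to which it gave an adjusted p, mt-Tm, in Myh11-Cre against Wild Type, where it called 4.44% of all genes. In Itga8-Cre against Wild Type it called 0 of 16 members and 0.166% of all genes, and between the Cre lines 0 of 15 and 0.109%.

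The median log2 fold change of the 7 tested mRNAs was -0.13 in Itga8-Cre against Wild Type, 0.01 in Myh11-Cre against Wild Type and -0.18 in Itga8-Cre against Myh11-Cre, where all genes tested had medians of 0.04, 0.01 and 0.01. The first 2 comparisons share the Wild Type mice. Single libraries moved or turned these medians. The first was -0.37 without Itga8-Cre 1 and 0.0029 without Itga8-Cre 2, the second -0.21 without Myh11-Cre 1 and 0.23 without Myh11-Cre 2, and the third -0.43 without Itga8-Cre 1 and 0.07 without Myh11-Cre 1. For mt-Co1 the means were 29692 ± 1583 CPM in Wild Type, 26062 ± 6446 in Itga8-Cre and 29785 ± 5941 in Myh11-Cre mice (SD, n = 3 each). Its log2 fold change was -0.19 (SE 0.31, edgeR adjusted p = 0.877) in Itga8-Cre against Wild Type. In Myh11-Cre against Wild Type it was 0.00 (SE 0.31, adjusted p = 0.995), with a direction that turned under another scaling. These differences were smaller than the spread within the Cre groups. Over the 7 mRNAs, log2 fold changes ran from -0.29 (mt-Nd4) to 0.05 (mt-Nd6) in Itga8-Cre against Wild Type, and from -0.04 (mt-Nd4) to 0.19 (mt-Nd1) in Myh11-Cre against Wild Type, and edgeR adjusted p was 0.763 or more throughout. The 2 ribosomal RNAs had log2 fold changes between -0.14 and -0.01 in both comparisons, with edgeR adjusted p of at least 0.912. The standard errors of these 9 genes lay between 0.30 and 0.37 on the log2 scale, so each difference was smaller than its standard error.

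The methionine transfer RNA mt-Tm and the glutamine transfer RNA mt-Tq had the smallest p-values of any member. They lie side by side between mt-Nd1 and mt-Nd2, on opposite strands, and are shown with the anticodon in capitals because they are the members closest to a difference.
mt-Tm, chrM:3845-3913, plus strand: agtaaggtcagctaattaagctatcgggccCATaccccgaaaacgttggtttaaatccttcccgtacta
mt-Tq, chrM:3772-3842, minus strand: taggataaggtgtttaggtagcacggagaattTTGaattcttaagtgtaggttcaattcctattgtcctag

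The level of mt-Tm (ENSMUSG00000064344.1) was 2.57, 1.47 and 1.86 CPM in Itga8-Cre mice 1, 2 and 3, 2.76, 2.43 and 2.42 in the Myh11-Cre mice, and 1.33, 1.61 and 1.20 in the Wild Type mice. All 3 Myh11-Cre mice lay above all 3 Wild Type mice, and the Itga8-Cre mice overlapped both groups. The log2 fold change in Myh11-Cre against Wild Type was 0.88 (SE 0.25, edgeR adjusted p = 0.218, unadjusted 0.00761), from 2.54 ± 0.195 against 1.38 ± 0.212 CPM (SD, n = 3 each). DESeq2 gave a log2 fold change of 0.89 with an adjusted p of 0.0453, the lowest of a range of 0.0453 to 0.518 over the alternative settings. These levels rest on 46 to 101 counts per library. For mt-Tq (ENSMUSG00000064343.1) the levels were 1.29, 1.36 and 1.47 CPM in Itga8-Cre mice 1, 2 and 3, 1.83, 0.997 and 1.80 in the Myh11-Cre mice, and 0.927, 1.14 and 0.781 in the Wild Type mice. Its log2 fold change in Myh11-Cre against Wild Type was 0.70 (SE 0.29, edgeR adjusted p = 0.286, unadjusted 0.0406), and Myh11-Cre 2 lay within the Wild Type range. In Itga8-Cre against Wild Type it was 0.53 (SE 0.29, edgeR adjusted p = 0.699), with groups that did not overlap. Both genes are shorter than the reads, so each counted read either ran past the gene or had been trimmed. mt-Nd2 begins at the base after mt-Tm, and its own log2 fold change in Myh11-Cre against Wild Type was 0.10 (SE 0.31, edgeR adjusted p = 0.884). Chosen after the values were seen, the ratio of mt-Tm to mt-Nd2 counts, times 1000, was 0.870, 0.883 and 0.871 in the Itga8-Cre mice, 0.788, 1.37 and 1.04 in the Myh11-Cre mice, and 0.649, 0.702 and 0.433 in the Wild Type mice. Every Cre mouse lay above every Wild Type mouse in this ratio (exact two-sided permutation p = 0.1 for either Cre group against Wild Type, the smallest that 3 against 3 allows). Ratios to a neighbouring mRNA were also taken for mt-Tq, mt-Ti, mt-Tw, mt-Tt and mt-Tp. In each of those, both Cre groups overlapped Wild Type. For mt-Tw to the same mt-Nd2, times 1000, the Itga8-Cre mice had 1.28, 3.06 and 1.78. The Myh11-Cre mice had 1.27, 2.43 and 2.05, and the Wild Type mice 2.05, 1.43 and 1.01.

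Shares of all counts, which do not depend on a scaling factor, also overlapped between the genotypes for mRNA and ribosomal RNA. Mitochondrial mRNAs took 5.30% ± 0.333 of counts in Wild Type, 4.71% ± 0.710 in Itga8-Cre and 4.94% ± 0.748 in Myh11-Cre mice (SD, n = 3 each). The exact two-sided permutation p was 0.3 for Itga8-Cre against Wild Type, 0.6 for Myh11-Cre against Wild Type and 0.6 between the Cre lines, where 3 against 3 mice cannot go below 0.1. The ribosomal RNAs took 16.8% ± 0.613, 17.9% ± 3.67 and 16.2% ± 1.41 of counts in Itga8-Cre, Wild Type and Myh11-Cre mice, with exact permutation p of 0.5 to 0.7. All 6 of these tests had an adjusted p of 0.7, and the groups overlapped in each.

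Ratios were compared next, 5 ratios in 3 comparisons, with p adjusted over the 15. Of the 5, 1 sets mitochondrial against nuclear mRNA, and the others lie inside the organelle. Adjusted exact permutation p was 0.75 or more throughout, but 3 against 3 mice cannot go below 0.1, so none could pass 0.05. Groups did not overlap in 2 of the 15. These were mt-Nd6 to the heavy-strand mRNAs in Itga8-Cre against Wild Type and mitochondrial to nuclear mRNA in Myh11-Cre against Wild Type. The ratio of light-strand mt-Nd6 to the heavy-strand mRNAs was 0.00305, 0.00305 and 0.00345 in the Itga8-Cre mice and 0.00225, 0.00298 and 0.00299 in the Wild Type mice. It was 1.17-fold higher in Itga8-Cre (exact permutation p = 0.1, two-sided, n = 3 each), with 0.00305 in the lowest Itga8-Cre mouse and 0.00299 in the highest Wild Type mouse. Without Wild Type 1 the log2 difference of this ratio was 0.09, against 0.22 with it. The Myh11-Cre mice, at 0.00311, 0.00241 and 0.00246, overlapped both. Complex I mRNAs stood to complex IV mRNAs as 0.453 ± 0.0298 in Wild Type, 0.489 ± 0.0637 in Itga8-Cre and 0.477 ± 0.0515 in Myh11-Cre mice (SD, n = 3 each). With sparse counts for mt-Co2 and mt-Co3, nearly all complex IV counts in that ratio were those of mt-Co1. The ratio of complex V to complex IV was not computed, because the 2 complex V mRNAs had 0 to 6 counts together.

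The mitochondrial mRNAs were also set against the nuclear mRNAs for the same complexes. The sum of mitochondrial mRNA counts over that of 75 nuclear subunit genes was 1.95, 2.28 and 1.78 in Itga8-Cre mice 1, 2 and 3, 2.11, 1.71 and 1.82 in the Myh11-Cre mice, and 2.14, 2.50 and 2.55 in the Wild Type mice. All 3 Wild Type mice lay above all 3 Myh11-Cre mice, at 2.40 ± 0.221 against 1.88 ± 0.205 (SD, n = 3 each). The ratio was 1.28-fold lower in Myh11-Cre (exact two-sided permutation p = 0.1, the smallest possible, and 0.75 adjusted over the 15 ratios). The Itga8-Cre mice, at 2.00 ± 0.251, overlapped both groups.

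**Figure D4:**
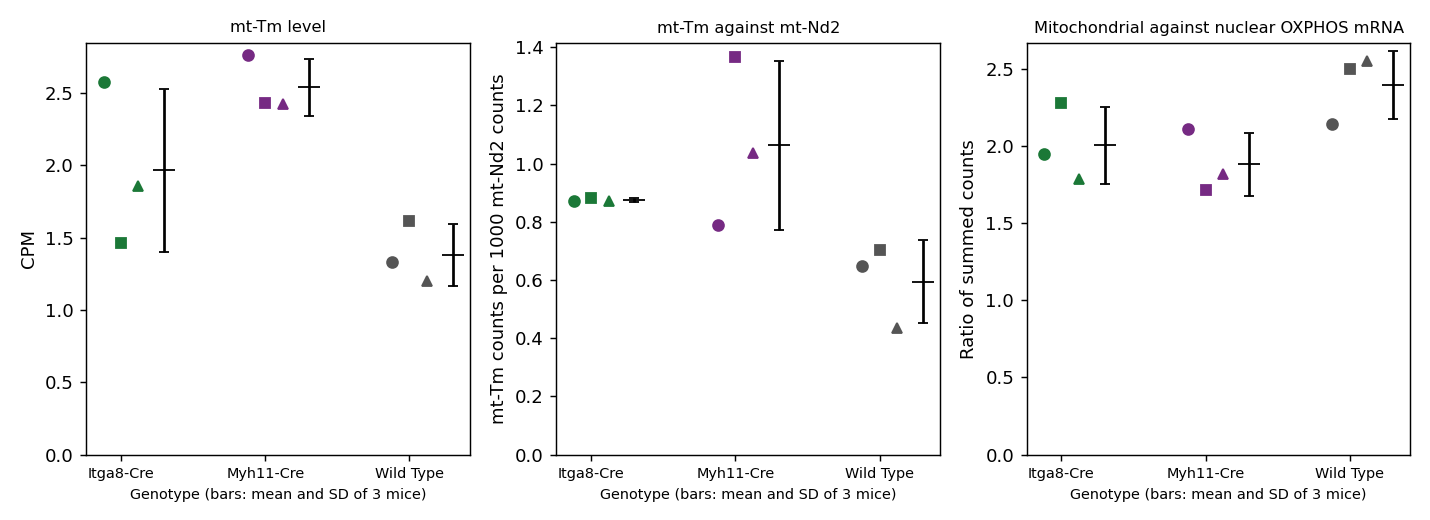
The 3 panels plot, by genotype (x axis), the CPM of mt-Tm, the mt-Tm counts per 1000 mt-Nd2 counts and the ratio of summed mitochondrial to summed nuclear respiratory chain (OXPHOS) mRNA counts (y axes from 0). Points are mice, with marker shape for mouse number, and black bars are mean and SD of 3. Myh11-Cre and Wild Type mice do not overlap in any panel, and in CPM 26% of all 19412 genes do not overlap between them. The panels were not picked blind. mt-Tm had the smallest p of any member, and its ratio to mt-Nd2 was chosen after the values were seen. The ratio to nuclear mRNA is from 15 ratio comparisons, most of which overlapped. For mt-Tm between Myh11-Cre and Wild Type mice, the adjusted p was 0.218 with edgeR, which called 0 of 19412 genes, and 0.0453 with DESeq2. There DESeq2 called 4.44% of all genes. The unadjusted exact permutation p of both ratios was 0.1, the smallest that 3 against 3 allows, so that test could not pass 0.05.

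Of the 75 nuclear subunit genes, 0 passed the edgeR test in either direction in any comparison, and 0 of all 19412 genes did. In Myh11-Cre against Wild Type, 74 had a log2 fold change above 0, with a median of 0.36, where 9880 of all 19412 genes lay above 0 with a median of 0.01, and 15 of 75 had an unadjusted p under 0.05, where 16.4% of all genes did. The smallest p was that of Atp5g3, a subunit of the ATP synthase ring, at 187 ± 43.6 against 111 ± 6.00 CPM (SD, n = 3 each, log2 fold change 0.74, SE 0.17, edgeR adjusted p = 0.218). The complex I subunit Ndufa11 followed with a log2 fold change of 0.61 (SE 0.16, edgeR adjusted p = 0.218). In Itga8-Cre against Wild Type the median was 0.14, with 73 of 75 above 0, against 10851 of all 19412 genes, and 0 at an unadjusted p under 0.05. Markers of brown fat and skeletal muscle also differed between these mice. Ucp1 stood at 4411, 1954 and 3276 CPM in the Myh11-Cre mice and at 1971, 1454 and 1691 CPM in the Wild Type mice. Acta1 stood at 4.57, 2383 and 3636 CPM and at 145, 273 and 343 CPM in the same order. The part of these tissues in the nuclear lists was not tested.

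The nuclear genes that make, process and translate mitochondrial RNA were not called either. As edgeR called 0 of all 19412 genes in each comparison, these zeros do not set the lists apart. Of 19 genes for mitochondrial DNA transcription and replication, 0 were called, with medians of 0.11 in Itga8-Cre and 0.13 in Myh11-Cre against Wild Type. Tefm, the elongation factor of the mitochondrial polymerase, had the smallest p in both, with 8.22 ± 0.315 CPM in Wild Type, 10.5 ± 1.45 in Itga8-Cre and 11.8 ± 0.625 in Myh11-Cre mice (SD, n = 3 each). Its log2 fold change was 0.52 (SE 0.13, edgeR adjusted p = 0.218) in Myh11-Cre against Wild Type. Tfam, which packages mitochondrial DNA and activates its promoters, had 33.1 ± 0.333, 38.7 ± 4.78 and 40.0 ± 3.28 CPM in the same order, with edgeR adjusted p of 0.699 and 0.275 against Wild Type. Of 34 genes for RNA processing, polyadenylation and decay, 0 were called and the medians were 0.08 and 0.19. The lowest p there belonged to Fastkd2, a mitochondrial RNA-binding protein, with a log2 fold change of 0.38 (SE 0.10, edgeR adjusted p = 0.218) in Myh11-Cre against Wild Type. Of 78 genes of mitochondrial ribosomal proteins, 77 were tested and 0 called, with medians of 0.13 and 0.29. All 77 lay above 0 in Myh11-Cre against Wild Type, where 9880 of all 19412 genes did. There 16 of the 77 had an unadjusted edgeR p under 0.05, against 16.4% of all genes. Of 10 regulators of mitochondrial biogenesis, 0 were called, with medians of 0.15 and 0.07. Ppargc1a, a coactivator of that programme, had 40.7 ± 5.68 CPM in Itga8-Cre against 57.7 ± 24.4 CPM in Wild Type mice (SD, n = 3 each, edgeR adjusted p = 0.700). The nuclear lists thus had medians above 0 in Myh11-Cre mice while that of the mitochondrial mRNAs was 0.01, and the difference between lists was not tested.

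Brown fat, skeletal muscle and heart muscle are rich in mitochondria, and their markers varied between these aortae. A score was taken for each marker list as the mean log2(CPM + 0.1) of its tested genes, and the 7 abundant mitochondrial mRNAs were scored alike. Over the 9 mice the mitochondrial mRNA score went with the brown fat score (11 of 12 markers) at a Pearson r of 0.82 (exact permutation p = 0.00755, 0.0378 adjusted over 5 scores) and a Spearman rho of 0.73 (exact permutation p = 0.0311, 0.126 adjusted). Without the 2 mice farthest from the median brown fat score, Itga8-Cre 2 and Myh11-Cre 1, r was 0.60, so the size of the relation rests partly on those mice. Within both Cre groups the order of the 3 mice was the same on both scores. In Itga8-Cre mice 1, 2 and 3 the brown fat score was 7.69, 6.30 and 7.12 and the mitochondrial mRNA score 11.91, 11.16 and 11.40. In the Myh11-Cre mice they were 7.70, 6.79 and 7.31, and 12.10, 11.21 and 11.58. In the Wild Type mice, at 7.02, 6.80 and 6.998 and at 11.42, 11.63 and 11.82, the order was not the same.

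The relation to muscle markers had the opposite sign. For the 15 skeletal muscle genes r was -0.73 (exact permutation p = 0.0271, adjusted 0.0678, rho -0.68, p = 0.0503, adjusted 0.126), and r was -0.21 without Itga8-Cre 1 and Myh11-Cre 1, the 2 mice with the least skeletal muscle RNA. The relation therefore rests on those mice. For slow and cardiac muscle genes r was -0.63 (exact permutation p = 0.0726, adjusted 0.0842) with a rho of -0.60 (p = 0.0968, adjusted 0.161), and r was -0.64 without 2 mice. For smooth muscle genes r was -0.61 (exact permutation p = 0.0842, adjusted 0.0842) with a rho of -0.42 (p = 0.270, adjusted 0.270), and r was -0.51 without 2 mice. For the nuclear respiratory chain genes r was 0.66 (exact permutation p = 0.0548, adjusted 0.0842) with a rho of 0.53 (p = 0.148, adjusted 0.184), and r fell to 0.29 without 2 mice. Myh11-Cre 1 and Itga8-Cre 1, the mice with the highest mitochondrial mRNA levels, had Ucp1 at 4411 and 4957 CPM and Acta1 at 4.57 and 22.1 CPM. Itga8-Cre 2, with the lowest, had Ucp1 at 1348 CPM and Acta1 at 384 CPM. The scores share each library's scaling, and the part of tissue composition in the mitochondrial levels was not tested.

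**Figure D5:**
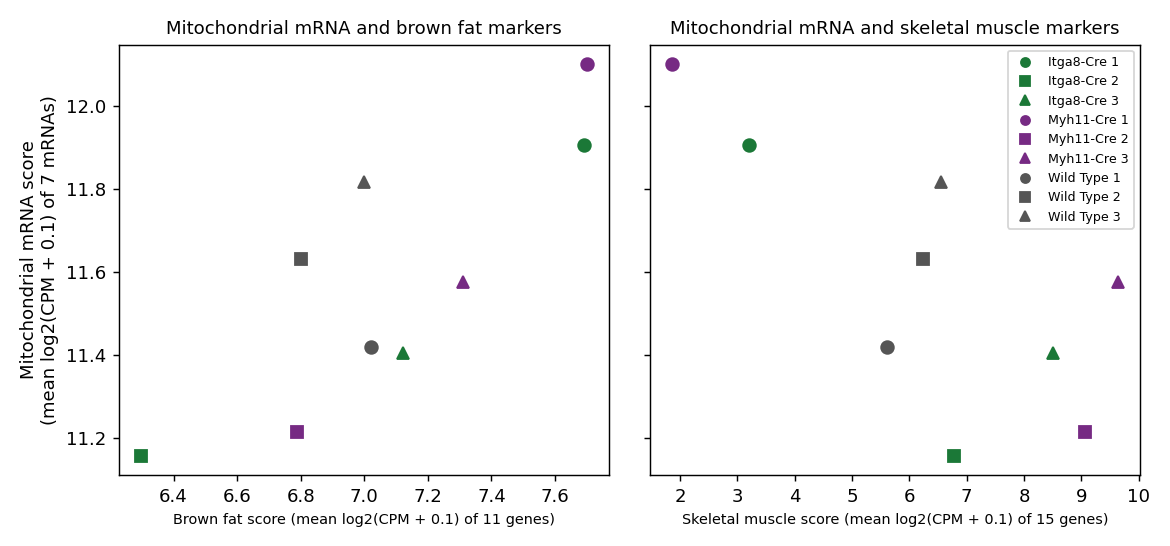
The score of the 7 abundant mitochondrial mRNAs (y axis, mean log2(CPM + 0.1)) is plotted against the brown fat score (left) and the skeletal muscle score (right) for the 9 mice, with colour for genotype and marker shape for mouse number. Myh11-Cre 1 and Itga8-Cre 1 have the highest mitochondrial and brown fat scores and the lowest skeletal muscle scores.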

How the data were processed

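Whole-aorta mRNA of 9 mice was sequenced as single-end 75 nt reads. Per the labels' protocols, libraries were oligo-dT selected from 200 ng of total RNA and marked for strand. The authors deposited a table of whole-number counts per gene, used for every test, and a second table of signal, in which each library's counts are scaled by a single factor. The signal values entered no test. Dividing them into the counts gave back DESeq2's default scaling. Per the submitters' processing notes, the build was GRCm38.p6. These notes name STAR 2.7.0f, fastp 0.20.0, Salmon 0.13.1, DESeq2, featureCounts and Subread 1.6.4, with no role or order. No source used here tells the annotation release, the strand setting or the treatment of reads with several matches.

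Counts were fitted for all 9 libraries with edgeR 4.0.16 in R 4.3.3 (filterByExpr by group, 19412 of 55453 genes kept, TMM factors, robust quasi-likelihood test), with a threshold of 0.05 after Benjamini-Hochberg adjustment over these genes. The other tools were limma 3.58.1 (voom) and DESeq2 1.42.0, and the edgeR step was tested on simulated data. For shares and ratios an exact permutation test, two-sided, was used, whose smallest p is 0.1. Scores used a pseudocount of 0.1. Windows of 75 bases were matched to GENCODE M21 transcripts, and the sequences and coordinates shown are from that release. P-values measure the spread between mice. Mouse numbers were not used as pairs. Alternatives were other scalings, no filter, other tools, 2-group fits, mouse number as a block, other denominators, counts per kilobase, and leaving out each library. Leaving out Itga8-Cre 1 and Myh11-Cre 1 together was added after the data were seen.

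The members were set by symbol, and the genes named are the members, the nuclear copies with the most counts, up to 3 genes with the smallest p of each nuclear list in each comparison, and Ucp1, Acta1 and Acta2. The members and lists were chosen with earlier results of these data known.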

Additional observations from a re-analysis of the deposited data

How the results depend on the processing

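Of 33 log2 fold changes of 11 genes under 594 alternative values, 71 turned in direction, in 23 of the 33. The largest of these was 0.35 in size and none had an adjusted p under 0.387, so the directions of the mitochondrial mRNAs and ribosomal RNAs should not be read. For the numbers of members called and the median fold changes, 6 results with 108 alternative values, 107 were equal or moved by less than the spread between mice. The exception was the number called in Myh11-Cre against Wild Type, which was 1 with DESeq2 (mt-Tm, where DESeq2 called 4.44% of all genes) and 0 with edgeR and limma. The cause was not tested. For mt-Tm in that comparison, leaving out single libraries gave log2 fold changes of 0.78 to 1.01. Using library totals in place of TMM factors shifts the mean scaling by -0.12 in Myh11-Cre against Wild Type on the log2 scale. The fitted log2 fold changes did not all move by that amount. That of mt-Nd2 went from 0.101 to -0.043 and that of mt-Tm from 0.877 to 0.754. Over the 9 same-numbered pairs of mice, residuals correlated at 0.03 to 0.40, with 5 pairs above 0.1. Pairs with unlike numbers ran from -0.35 to 0.24. The labels do not say that mouse numbers mark pairs, so the numbers were not taken as pairs. The replicate block gave 0 members called in each comparison. Exact tests of shares and ratios cannot go below 0.1, or 0.2 with a mouse left out, so they could not change side and say nothing of stability. Of their 21 differences under 171 alternative values, 20 turned in direction, in 11 of the 21, each with a single mouse left out. Leaving out single mice, differences in Itga8-Cre against Wild Type ran from -3.15 to 0.17 percentage points for the share of all counts from mitochondrial rRNAs and from -0.024 to 0.23 for the log2 ratio of summed rRNA to summed mRNA. Leaving out single mice, differences in Myh11-Cre against Wild Type ran from -0.74 to 0.0093 percentage points for the share of all counts from mitochondrial mRNAs, from -0.0086 to 0.075 for the log2 ratio of mt-Rnr2 to mt-Rnr1, from -0.16 to 0.085 for the log2 ratio of summed rRNA to summed mRNA, from -0.18 to 0.028 for the log2 ratio of mt-Nd6 to the heavy-strand mRNAs and from -0.017 to 0.13 for the log2 ratio of complex I to complex IV mRNAs. Leaving out single mice, differences in Itga8-Cre against Myh11-Cre ran from -0.64 to 0.15 percentage points for the share of all counts from mitochondrial mRNAs, from -0.0096 to 0.071 for the log2 ratio of mt-Rnr2 to mt-Rnr1, from -0.045 to 0.14 for the log2 ratio of complex I to complex IV mRNAs and from -0.0050 to 0.18 for the log2 ratio of mt mRNA to nuclear OXPHOS mRNA. In addition, counts below about 100 limit the transfer RNAs. With the mouse number as a replicate block, values turned to -0.0092 (mt-Nd1) and -0.0090 (mt-Nd6) in Itga8-Cre against Wild Type, and to -0.024 (mt-Co1), -0.064 (mt-Nd6) and -0.0079 (mt-Cytb) in Myh11-Cre against Wild Type. With DESeq2, values turned to 0.0013 (mt-Rnr2) and 0.0024 (mt-Nd5) in Myh11-Cre against Wild Type, and to -0.0017 (mt-Nd6) in Itga8-Cre against Myh11-Cre. With limma voom, values turned to -0.0095 (mt-Co1) and -0.019 (mt-Nd6) in Myh11-Cre against Wild Type. With library totals and no TMM factors, values turned to -0.043 (mt-Nd2), -0.13 (mt-Co1), -0.13 (mt-Nd6) and -0.091 (mt-Cytb) in Myh11-Cre against Wild Type, and to 0.019 (mt-Rnr1) and 0.063 (mt-Rnr2) in Itga8-Cre against Myh11-Cre. With totals and TMM factors from the other genes alone, values turned to -0.010 (mt-Co1) and -0.0074 (mt-Nd6) in Myh11-Cre against Wild Type. Without Itga8-Cre 1 and Myh11-Cre 1 together, values turned to -0.27 (mt-Nd1) and -0.17 (mt-Nd6) in Itga8-Cre against Wild Type, and to -0.0049 (mt-Nd1), -0.21 (mt-Nd2), -0.15 (mt-Co1), -0.35 (mt-Nd6) and -0.21 (mt-Cytb) in Myh11-Cre against Wild Type, and to 0.0083 (mt-Tq) in Itga8-Cre against Myh11-Cre. Leaving out single libraries, log2 fold changes in Itga8-Cre against Wild Type ran from -0.25 to 0.022 for mt-Rnr2, from -0.25 to 0.21 for mt-Nd1, from -0.32 to 0.087 for mt-Nd2, from -0.15 to 0.18 for mt-Nd6 and from -0.41 to 0.0029 for mt-Cytb. Leaving out single libraries, log2 fold changes in Myh11-Cre against Wild Type ran from -0.24 to 0.10 for mt-Rnr1, from -0.18 to 0.093 for mt-Rnr2, from -0.20 to 0.31 for mt-Nd2, from -0.15 to 0.15 for mt-Co1, from -0.35 to 0.17 for mt-Nd4, from -0.35 to 0.20 for mt-Nd5, from -0.34 to 0.23 for mt-Nd6 and from -0.21 to 0.23 for mt-Cytb. Leaving out single libraries, log2 fold changes in Itga8-Cre against Myh11-Cre ran from -0.25 to 0.10 for mt-Rnr1, from -0.17 to 0.086 for mt-Rnr2, from -0.44 to 0.045 for mt-Nd1, from -0.43 to 0.13 for mt-Nd2, from -0.49 to 0.067 for mt-Nd4, from -0.38 to 0.17 for mt-Nd5, from -0.19 to 0.39 for mt-Nd6 and from -0.46 to 0.073 for mt-Cytb. The causes of these turns were not tested.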

Other observations

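The share of mt-Nd1 in all mitochondrial mRNA counts was 13.4%, 11.5% and 13.1% in the Itga8-Cre mice, 12.4%, 12.4% and 12.6% in the Myh11-Cre mice, and 11.9%, 10.8% and 10.9% in the Wild Type mice. The Myh11-Cre and Wild Type mice did not overlap in this share, which was chosen after its values were seen (12.4% ± 0.114 against 11.2% ± 0.590, SD, n = 3 each, exact two-sided permutation p = 0.1, the smallest that 3 against 3 allows). The share of mt-Cytb, at 15.6% to 17.4% in all libraries, overlapped between the genotypes.

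The threonine and proline transfer RNAs, mt-Tt and mt-Tp, are neighbours on opposite strands. In Myh11-Cre 1, mt-Tp stood at 5.50 CPM, its highest level in the 9 libraries, and mt-Tt at 1.12 CPM, below every library other than Itga8-Cre 1.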
